A study of Mus musculus with 40 samples.

Results

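A set of 10 genes, named for the distal nephron and collecting duct, was followed in the kidney of growing mice: Egf, Umod, Slc12a1, Slc12a3, Calb1, Pvalb, Aqp2, Aqp3, Slc26a4 and Guca2b. The labels and files do not place Guca2b in a segment. They were taken by symbol, 10 of the 18194 genes with a probe set of a single symbol, and each was read from its probe set with the highest mean over all 40 arrays. All 10 were on the array, and all 10 passed the level needed for a test in kidney. Males of the strain C57BL/6 gave the RNA, with no transgene or treatment in the labels, and the design counts 5 animals per age. Kidney and lung were taken at ages of 1, 4 and 8 weeks and heart at 1 and 4 weeks, which makes 8 groups of 5 arrays. Growth is labelled rapidly proliferating for the 1-week organs, slowly proliferating for those of 4 weeks and very slowly proliferating for those of 8 weeks. Signals are linear array units, and changes are differences in log2(signal + 16), a scale that understates changes of dim genes.

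The thick ascending limb takes up sodium chloride without water and dilutes the tubular fluid. The distal convoluted and connecting tubules that follow reabsorb more salt and set the excretion of calcium and magnesium. In the collecting duct, principal cells take up sodium and, under vasopressin, water, while intercalated cells exchange acid and base. The capacity to concentrate urine is low in newborn rodents and develops in the first weeks after birth.

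The libraries were checked before use. The library labelled 1wk Heart 5 gave 27187 for the lung gene Sftpc and 2396 for the cardiac myosin gene Myh6, against 125 to 1073 and 36521 to 44803 on the other 4 libraries of its group. The library labelled 1wk Lung 4 gave 1983 for Sftpc and 36022 for Myh6, against 23328 to 28922 and 611 to 1868 on its group's others. Both were left out, and no comparison within kidney uses them. The proximal tubule transporter gene Slc34a1 gave 17468 to 20078 on the 5 kidney arrays of 1 week. Summed liver markers reached 35159 and summed adrenal markers 4423 on kidney arrays of 1 week, against at most 9477 and 999 at the older ages. The gap between 3′ and 5′ actin probe sets (log2), which widens with shorter cRNA, ran from 0.34 to 0.51 in kidney at 1 week, 0.61 to 1.43 at 4 weeks and 0.73 to 0.99 at 8 weeks. The 1-week range lies under both older ranges, so the actin gap is confounded with age. The same gap for Gapdh ran from -0.47 to -0.31, -0.32 to -0.18 and -0.36 to -0.25 at these ages, which overlap.

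Between 1 and 8 weeks, 9 of the 10 genes rose in kidney and Aqp3 did not pass the test. The changes were of very unequal size. Egf rose 23.7-fold, Pvalb 3.91-fold, and 6 others between 1.41-fold (Aqp2) and 2.42-fold (Slc26a4). The fold of Guca2b, 23, is taken over 1-week signals next to the level needed for a test. Its size depends on that dim base. These signals overlap heart signals of 1 and 4 weeks and lung signals of 4 weeks, and lie above lung signals of 1 and 8 weeks. Of all 13756 genes tested in kidney, 19.3% were called higher and 28% lower at 8 weeks (limma, Benjamini-Hochberg adjusted p under 0.05). The 10 genes had a median log2 change of 1.15 against -0.04 for all genes tested. For 9 of them every 8-week array lay above every 1-week array, which held for 14.6% of all genes. At 4 weeks the same count of 9 was called higher than at 1 week, against 17.3% of all genes, and 8 of these had arrays that did not overlap, against 12.2%. Between 4 and 8 weeks none of the 10 was called, against 0.632% of all genes in either direction (87 genes called, and 1107 at an unadjusted p under 0.05). Because each array is scaled to the same trimmed mean, a rise is relative to the other transcripts on the array. In these bulk samples fewer cells of a type and less RNA per cell cannot be told apart. Between 1 and 8 weeks all 9 proximal tubule markers were called higher (summed signal 72501 to 92679 at 1 week, 110661 to 154539 at 4 weeks and 124335 to 158505 at 8 weeks). All 4 podocyte markers on the array, all 6 stroma and matrix markers and all 6 cell cycle markers were called lower. Their sums at 1, 4 and 8 weeks were 7298 to 10383, 3627 to 4035 and 3188 to 3806 for podocytes, and 45425 to 64752, 11579 to 13576 and 8263 to 10407 for matrix. Cell cycle sums were 4300 to 6845, 1240 to 1900 and 404 to 709. Of 5 liver markers 3 were called lower, with sums of 14581 to 35159, 7071 to 9477 and 5818 to 7468. No listed marker was at 0, and the part of these other cell types in the rises was not tested.

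**Figure D1:**
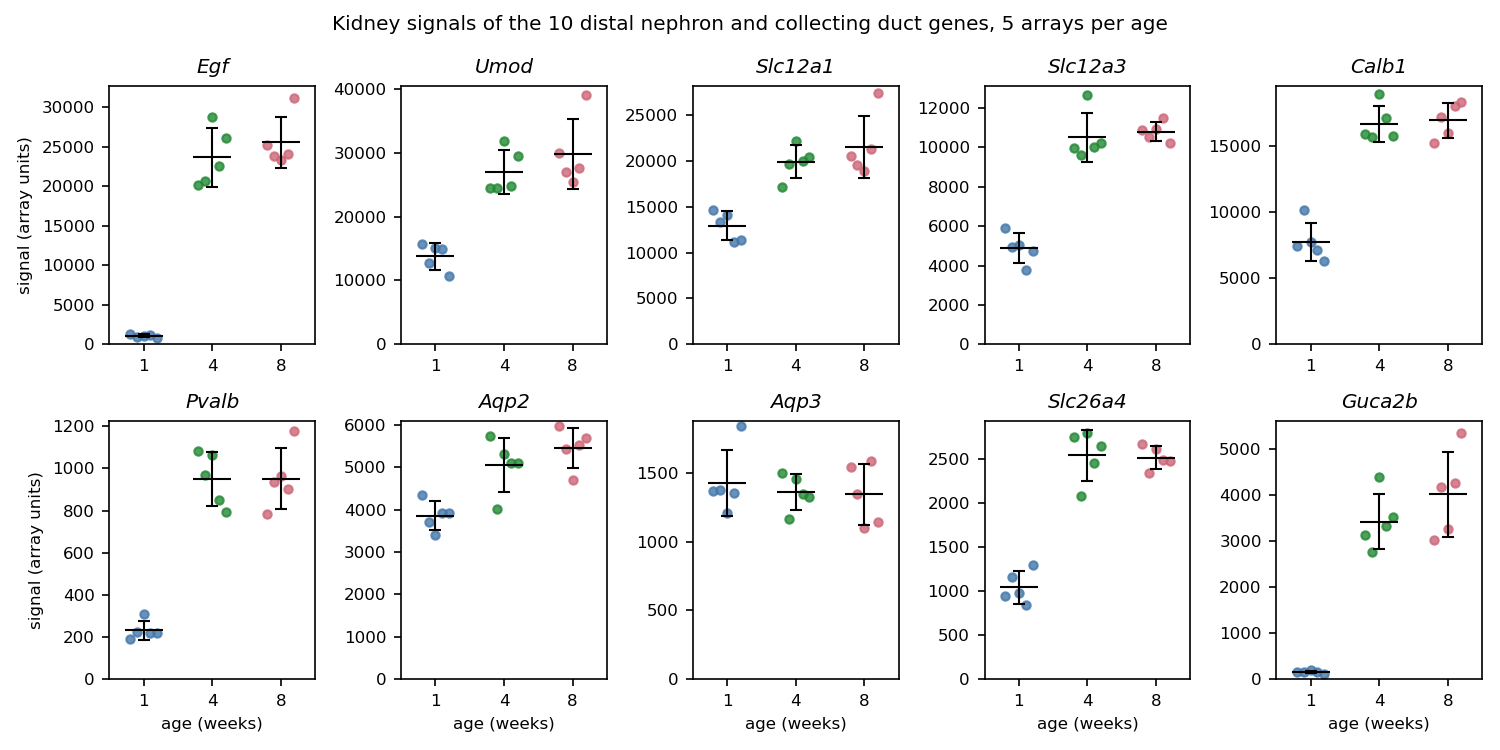
Kidney signal (linear array units, axes from 0) of each of the 10 genes at 1, 4 and 8 weeks. Points are single arrays in replicate order, and bars show the mean and SD of 5 arrays. Egf and Guca2b are near the axis at 1 week, and the Aqp3 arrays of the 3 ages overlap.

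The promoter sequences of Egf and Guca2b, of Umod and of Aqp3, which was not called, are shown. RefSeq's table (GRCm38.p6) held a promoter for 9 of the 10 genes, Calb1 being the exception. The 250 bases before the start are given 5′ to 3′ on the gene's strand, which is the minus strand for all 4. They lie at chr3:129755323-129755572 for Egf, chr4:119658946-119659195 for Guca2b, chr7:119479263-119479512 for Umod and chr4:41098184-41098433 for Aqp3. Capitals mark matches to 6 short motifs searched on both strands: TATAAA (the core promoter box), GTTAAT (half-site of the HNF1 factors), AAGGTCA (extended nuclear receptor half-site), TGACGTCA (cAMP response element), TGTTTAC (forkhead) and AGATAA (site of GATA factors).
Egf: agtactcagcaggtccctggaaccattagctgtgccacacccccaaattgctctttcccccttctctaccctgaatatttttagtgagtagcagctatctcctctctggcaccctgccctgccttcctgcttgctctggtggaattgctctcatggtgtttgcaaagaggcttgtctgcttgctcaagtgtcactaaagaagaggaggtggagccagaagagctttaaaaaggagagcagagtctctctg
Guca2b: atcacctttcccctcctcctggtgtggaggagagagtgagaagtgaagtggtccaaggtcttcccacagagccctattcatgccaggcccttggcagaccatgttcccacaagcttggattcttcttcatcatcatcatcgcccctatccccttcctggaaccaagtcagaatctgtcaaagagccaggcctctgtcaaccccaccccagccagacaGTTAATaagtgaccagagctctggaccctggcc
Umod: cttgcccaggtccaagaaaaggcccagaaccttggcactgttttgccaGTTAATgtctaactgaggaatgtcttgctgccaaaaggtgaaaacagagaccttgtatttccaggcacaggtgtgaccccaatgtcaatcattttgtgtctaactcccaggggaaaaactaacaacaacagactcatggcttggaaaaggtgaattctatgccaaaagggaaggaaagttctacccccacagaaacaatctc
Aqp3: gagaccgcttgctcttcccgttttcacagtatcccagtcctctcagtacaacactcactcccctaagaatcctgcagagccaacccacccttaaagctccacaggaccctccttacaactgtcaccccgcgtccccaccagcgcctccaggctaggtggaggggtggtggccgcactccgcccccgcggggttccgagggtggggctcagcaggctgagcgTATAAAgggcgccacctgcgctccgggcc
GTTAAT was found 33 bases before the Guca2b start and 202 bases before the Umod start, and in 6.43% of all 32851 promoters of this length. TATAAA was found in Aqp3, Slc12a3 and Slc26a4, 29 to 32 bases before the start, and in 12.4% of all promoters. For Slc12a1, Slc12a3 and Slc26a4 the start used for the window lies inside the gene bounds given below. AGATAA was present in Slc12a3 and Aqp2 (9.99% of all) and TGTTTAC in Slc12a1 (3.17%). AAGGTCA (4.08%) and TGACGTCA (1.55%) were in none of the 9, and none of the 6 motifs was in the Egf or Pvalb window. No motif contains another, and the matches do not overlap. Egf and Guca2b share none of the 6 motifs in these windows.

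Egf (chromosome 3, 129677574 to 129755322, GRCm38.p6) encodes the precursor of epidermal growth factor, a membrane protein of the thick ascending limb and distal convoluted tubule. Egf signals at 1 week were 1320.2, 963, 1039, 1177 and 837 (mean 1067 ± 187, SD, n = 5), in replicate order as for all values listed here. They were 20157, 20701, 28776, 22513 and 26166 at 4 weeks (mean 23663 ± 3701, SD, n = 5) and 25268, 23815, 23361, 24134 and 31173 at 8 weeks (mean 25550.3 ± 3221, SD, n = 5). The lowest 4-week array stood more than an order of magnitude above the highest 1-week array, and the 4-week and 8-week arrays overlapped. The difference between 1 and 4 weeks was 4.45 on the log2 scale (SE 0.14, 95% interval 4.16 to 4.75, limma adjusted p = 3.17e-12). From 4 to 8 weeks it was 0.12 (95% interval -0.18 to 0.41, limma adjusted p = 0.943). In lung the probe set read 72.2 to 163 and in heart 209 to 296, so the heart arrays lay above the lung arrays and below every kidney array.

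Umod (chromosome 7, 119462708 to 119479262) encodes uromodulin, the thick ascending limb glycoprotein that is abundant in urine. Umod was already bright at 1 week, with signals of 15693, 12706, 15129, 14957 and 10646 (mean 13826 ± 2112, SD, n = 5). The signals were 24451, 24492, 31815, 24845 and 29511 at 4 weeks (mean 27023 ± 3425, SD, n = 5) and 29995, 26972, 25486, 27645 and 39080.4 at 8 weeks (mean 29836 ± 5418, SD, n = 5). No 1-week array reached any array of the older ages, which overlapped each other. Umod rose by 0.97 from 1 to 4 weeks (SE 0.14, limma adjusted p = 3.62e-05) and stood 1.11 above the 1-week level at 8 weeks (limma adjusted p = 8.46e-06). The other Umod probe set rose by 1.37 from 1 to 8 weeks. In lung and heart the Umod signals lay between 2.9 and 59.5, below the level of 117.9 needed for a test.

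Slc12a1 (chromosome 2, 125152510 to 125230002) encodes NKCC2, the sodium-potassium-chloride cotransporter of the thick ascending limb and the target of loop diuretics. Slc12a1 signals at 1 week were 14689, 13324, 14063, 11110.2 and 11386 (mean 12914 ± 1599, SD, n = 5). They were 17182, 19654, 22198, 19955 and 20425 at 4 weeks (mean 19883 ± 1803, SD, n = 5) and 20483, 19595, 18844, 21316 and 27342 at 8 weeks (mean 21516 ± 3387, SD, n = 5). The arrays of 1 week lay below all older arrays. Slc12a1 rose by 0.63 from 1 to 4 weeks (SE 0.12, limma adjusted p = 0.000498) and by 0.73 from 1 to 8 weeks (SE 0.12, limma adjusted p = 0.000108). A further Slc12a1 probe set stayed dim, at 37.3 to 132 in kidney at 1 and 8 weeks, and was not tested.

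Of 10 other thick ascending limb genes tested, 5 were called higher and 2 lower at 8 weeks than at 1 week. Over all genes tested the shares were 19.3% higher and 28% lower. The median of these 10 was 0.33. Ppp1r1a, a protein phosphatase inhibitor, rose by 1.65 (SE 0.11, from 1023 ± 135 to 3225 ± 211), where ± is the SD of 5 arrays as for the genes that follow. Ptger3, the prostaglandin E receptor EP3, rose by 1.58 (SE 0.14, from 526 ± 81.8 to 1612 ± 353), and the potassium channel gene Kcnj1 (ROMK) by 0.74. The tight junction genes Cldn19 and Cldn16, which set the paracellular path of magnesium and calcium, fell by 0.46 and 0.31. Under quantile normalization neither of these falls passed the test (limma adjusted p = 0.0829 and 0.15), and the Cldn19 call was also lost with the 3′ to 5′ actin gap as a covariate (the actin covariate; -0.48, adjusted p = 0.075).

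The receptor of Egf and its regulators had smaller log2 changes than the ligand. Of 7 other genes of the EGF receptor system tested, 2 were called higher and 2 lower at 8 weeks (19.3% and 28% of all genes). Errfi1, an inhibitor of the EGF receptor that is induced by growth factors and stress, rose by 2.92 (SE 0.18, from 2169 ± 590.5 to 16087 ± 1334). Egfr, the receptor, rose by 0.65 (SE 0.16, from 981 ± 210.1 to 1515 ± 87.6). The alternative ligands Hbegf and Btc fell by 0.87 and 0.35. The Btc call was lost under quantile normalization (-0.18, limma adjusted p = 0.167) and with the actin covariate (-0.28, adjusted p = 0.183). The ligand genes Ereg and Nrg1 and the receptor gene Erbb4 were under the level needed for a test.

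Slc12a3 (chromosome 8, 94329109 to 94366222) encodes NCC, the thiazide-sensitive sodium-chloride cotransporter of the distal convoluted tubule. Slc12a3 signals at 1 week were 5912, 4926, 5067, 3765 and 4739 (mean 4882 ± 769, SD, n = 5). They were 9965, 9616, 12674, 10037 and 10224 at 4 weeks (mean 10503 ± 1233, SD, n = 5) and 10869, 10509, 10946, 11475 and 10219 at 8 weeks (mean 10804 ± 475, SD, n = 5). All older arrays lay above all 1-week arrays, and replicate 3 of 4 weeks was the highest of the 15. Slc12a3 rose by 1.11 from 1 to 4 weeks (SE 0.11, limma adjusted p = 1.14e-06) and stood 1.16 above 1 week at 8 weeks (limma adjusted p = 5.72e-07).

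Calb1 (chromosome 4, 15881264 to 15906709) encodes calbindin-D28k, the calcium-binding protein of the distal convoluted and connecting tubule. Calb1 signals at 1 week were 7411, 10134, 7728, 7119.6 and 6297 (mean 7738 ± 1441, SD, n = 5). They were 15935, 15709.7, 18912, 17101 and 15758 at 4 weeks (mean 16683 ± 1369.8, SD, n = 5) and 15200.3, 17169, 15949, 18028 and 18315 at 8 weeks (mean 16932 ± 1336, SD, n = 5). Replicate 2 was the highest at 1 week and still lay under every older array. Calb1 rose by 1.12 from 1 to 4 weeks (SE 0.12, limma adjusted p = 1.32e-06), and the 4-to-8-week difference was 0.021 (95% interval -0.23 to 0.27). The other 3 Calb1 probe sets rose by 1.57, 1.42 and 0.90 between 1 and 8 weeks, all called in limma.

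Pvalb (chromosome 15, 78191112 to 78206400) encodes parvalbumin, a calcium buffer of the early distal convoluted tubule and also of fast skeletal muscle and of interneurons. Pvalb was dim at 1 week, at 192, 221, 311, 219 and 220.2 (mean 233 ± 45.5, SD, n = 5). It gave 1083, 969.9, 1063, 849 and 791 at 4 weeks (mean 951 ± 129, SD, n = 5) and 784, 935, 964, 902 and 1177 at 8 weeks (mean 952 ± 143, SD, n = 5). The 1-week arrays stood apart below all older arrays, which mixed. Pvalb rose by 1.97 from 1 to 4 weeks (SE 0.14, limma adjusted p = 1.78e-08), and the difference from 4 to 8 weeks had a 95% interval of -0.29 to 0.29. Summed signals of 7 skeletal muscle genes were 328 to 475 in kidney at 1 week and 337 to 529 at 8 weeks.

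Of 11 other genes of the distal convoluted and connecting tubule tested, 8 were called higher at 8 weeks and none lower, with a median of 0.49. The shares among all genes were 19.3% higher and 28% lower. Under quantile normalization 6 of the 11 were called higher at 8 weeks. In that setting 6823 of all 13756 genes were called, 48.8% of them higher. Klk1, tissue kallikrein, a serine protease of the connecting tubule, rose by 1.72 (SE 0.11, from 8656 ± 738 to 28572 ± 2421). The magnesium channel gene Trpm6 rose by 0.84, and was named after its values were seen. With the actin covariate 5 of the 11 were called higher at 8 weeks, and 4 against 9 without it at 4 weeks. At 4 weeks 1407 of all 13756 genes were called higher with that covariate. The share of all genes at 8 weeks with it is not given here. None of the 11 was called between 4 and 8 weeks, against 0.632% of all genes.

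Aqp2 (chromosome 15, 99579056 to 99584545) encodes the vasopressin-regulated water channel of the apical side of principal cells. Aqp2 signals at 1 week were 4335, 3702, 3395, 3929 and 3922 (mean 3857 ± 345, SD, n = 5). They were 5743, 4002, 5311, 5095 and 5099.8 at 4 weeks (mean 5050.2 ± 642, SD, n = 5) and 5965, 5420.5, 4698, 5519 and 5684 at 8 weeks (mean 5457 ± 472, SD, n = 5). Replicate 2 of 4 weeks lay among the 1-week arrays, while the 8-week arrays lay above all of them. Aqp2 rose by 0.38 from 1 to 4 weeks (SE 0.11, limma adjusted p = 0.00911) and by 0.50 from 1 to 8 weeks (SE 0.11, limma adjusted p = 0.00124). The 4-week call was lost under quantile normalization (0.18, limma adjusted p = 0.187), with the 3′ to 5′ actin gap as a covariate (0.24, adjusted p = 0.282) and without replicates 3 and 4 of 1 week, the arrays with high adrenal markers and an alternative chosen after seeing the data (0.33, adjusted p = 0.0512). In a single fit of all 38 arrays neither Aqp2 call passed (adjusted p = 0.204 and 0.0838).

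Aqp3 (chromosome 4, 41092724 to 41098183) encodes the water and glycerol channel of the basolateral side of the same cells. Aqp3 signals at 1 week were 1373, 1375, 1212, 1356 and 1845 (mean 1432 ± 240.4, SD, n = 5). They were 1502, 1166, 1461, 1351 and 1325 at 4 weeks (mean 1361 ± 132, SD, n = 5) and 1545, 1351, 1099, 1590.4 and 1146 at 8 weeks (mean 1346 ± 224, SD, n = 5). The arrays of the 3 ages overlapped throughout, and replicate 5 of 1 week was the highest of the 15. The 8-minus-1-week difference was -0.09 on the log2 scale (95% interval -0.37 to 0.19, limma adjusted p = 0.597). A pair of further Aqp3 probe sets differed by -0.11 and -0.011 (limma adjusted p = 0.795 and 0.968), and the fourth was too dim to test. The apical and the basolateral water channel were not tested against each other.

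Other principal cell genes moved both ways. Of 13 tested, 6 were called higher and 5 lower at 8 weeks than at 1 week (19.3% and 28% of all genes). Their median was 0.32. Sgk1, the aldosterone-induced kinase, rose by 1.37 (SE 0.20, from 3712 ± 372 to 9708 ± 1887), and Aqp4, a further basolateral water channel, by 0.99 (SE 0.17, from 810.1 ± 157 to 1606 ± 197). Avpr2, the vasopressin receptor, rose by 0.94. Of the sodium channel ENaC, the alpha subunit gene Scnn1a rose by 0.84, whereas the beta and gamma subunit genes Scnn1b and Scnn1g fell by 0.64 and 0.55. Scnn1a went from 1262 ± 385 to 2192 ± 326 and Scnn1b from 1334 ± 225 to 843 ± 96.5. Avpr2 and Scnn1a were named after their values were seen. The transcription factor genes Gata3 and Elf5 fell by 1.17 and 1.04, and the Gata3 call was lost with the actin covariate (-1.10, limma adjusted p = 0.0681).

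Slc26a4 (chromosome 12, 31519814 to 31560055) encodes pendrin, the chloride-bicarbonate exchanger of type B intercalated cells. Slc26a4 signals at 1 week were 936, 1154, 979, 836 and 1296 (mean 1040.2 ± 184, SD, n = 5). They were 2743, 2072, 2784, 2448 and 2637 at 4 weeks (mean 2537 ± 291, SD, n = 5) and 2662, 2335, 2602, 2478 and 2471 at 8 weeks (mean 2509.5 ± 127, SD, n = 5). The 1-week arrays did not reach the older ones, and the 8-week arrays lay within the range of 4 weeks. Slc26a4 rose by 1.28 from 1 to 4 weeks (SE 0.12, limma adjusted p = 3.97e-07), and the 8-minus-1-week difference was 1.27 (limma adjusted p = 3.47e-07).

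Of 13 other intercalated cell genes tested, 5 were called higher and 4 lower at 8 weeks (19.3% and 28% of all genes). Their median was 0.031. Aqp6, an intracellular channel of acid-secreting cells, rose by 1.07 (SE 0.13, from 759.5 ± 122 to 1606 ± 217), and the carbonic anhydrase gene Car2 by 1.04 (SE 0.13, from 9309 ± 1799 to 18870.5 ± 1491). Slc4a9, a bicarbonate transporter of type B cells, fell by 0.60, from 1098 ± 348 to 695 ± 96.5. The ammonia channel gene Rhcg fell by 0.57, and Atp6v1b1, a proton pump subunit, by 0.67. The Atp6v1b1 call was lost under quantile normalization (-0.51, limma adjusted p = 0.0952) and with the actin covariate (-0.36, adjusted p = 0.413), and the Slc4a9 call with the actin covariate (-0.61, adjusted p = 0.0764). With that covariate 4 genes of this list were called higher and 2 lower, and the shares of all genes with it are not given here.

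Guca2b (chromosome 4, 119656601 to 119658945) encodes uroguanylin, a peptide that raises sodium excretion and activates guanylate cyclase C in the intestine. The labels and files do not place its transcript in a nephron segment. Guca2b signals at 1 week were 159, 154, 191, 162 and 118 (mean 157 ± 26.1, SD, n = 5), next to the level of 117.9 needed for a test. They were 3126, 2759, 4379, 3323 and 3518 at 4 weeks (mean 3421 ± 604, SD, n = 5) and 3012, 4166, 3257, 4261 and 5347 at 8 weeks (mean 4009 ± 927, SD, n = 5). The 1-week arrays lay far under the others, and the older ages overlapped. Guca2b rose by 4.31 from 1 to 4 weeks (SE 0.16, 95% interval 3.96 to 4.66, limma adjusted p = 2.67e-11). The 8-minus-4-week difference was 0.21 (95% interval -0.14 to 0.57, limma adjusted p = 0.853).

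Of 3 other genes of the guanylin list tested, Kcnj1 was called higher and Npr1 lower at 8 weeks (19.3% and 28% of all genes). Npr1, the natriuretic peptide receptor that makes cyclic GMP, fell by 0.63 from a low level (197 ± 56.6 to 119.7 ± 34.5). The Npr1 call was lost with the actin covariate (-0.67, limma adjusted p = 0.105). Guca2a, the guanylin gene, and Gucy2c, which encodes guanylate cyclase C, were under the level needed for a test. No value is given for either.

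**Figure D2:**
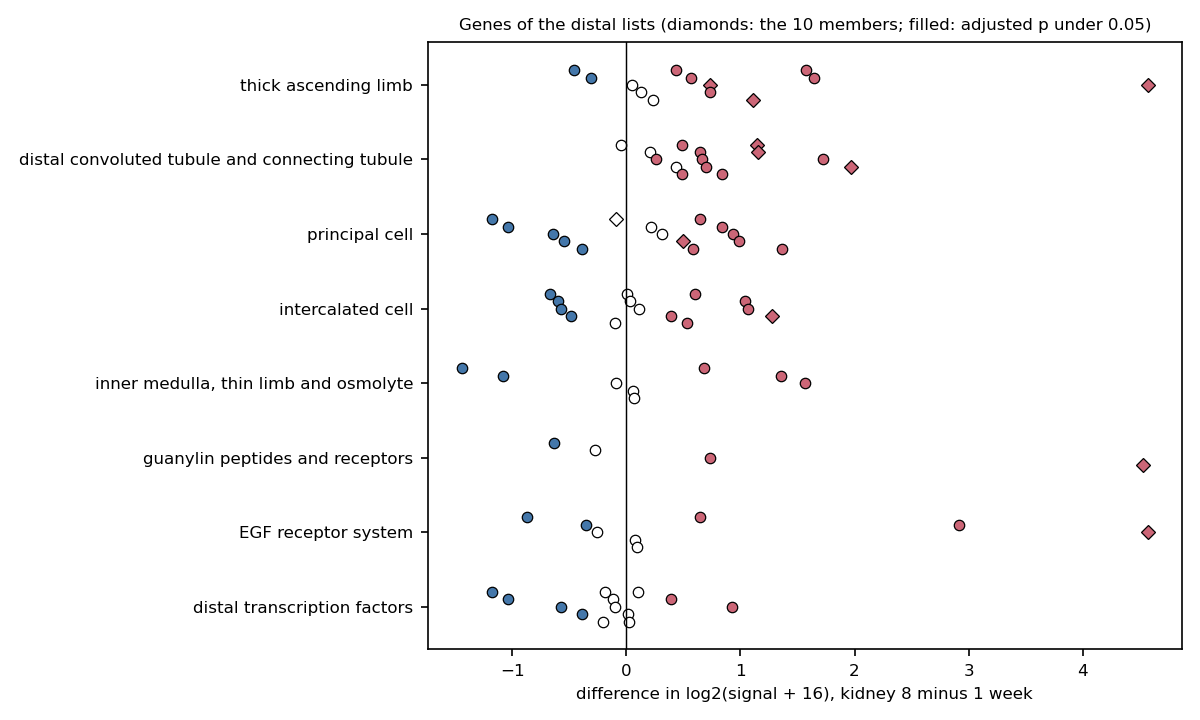
Kidney change from 1 to 8 weeks, as the difference in log2(signal + 16), for each tested gene of 8 lists. Diamonds are the 10 genes followed here, circles the others, and filled points passed the test (red higher, blue lower). The distal convoluted and connecting tubule list has no blue point, whereas the principal and intercalated cell lists have points on both sides of 0.

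Over all 8 lists, 90 other distal genes were listed, 80 were on the array and 73 were tested. At 8 weeks 31 were called higher and 17 lower than at 1 week, with a median of 0.13 against -0.04 for all genes tested. The shares among all genes were 19.3% higher and 28% lower. At 4 weeks the counts were 33 higher and 13 lower (17.3% and 25.3% of all genes). None of the 73 was called between 4 and 8 weeks, against 0.632% of all genes.

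The study sampled 3 ages, so the change before 4 weeks could be set against the change after. The first step exceeded the second in 7 of the 10 genes, with 8.06% of all genes tested called in that direction. The difference between the steps was 4.34 for Egf (SE 0.24, limma adjusted p = 1.62e-08), 4.10 for Guca2b (SE 0.29) and 1.97 for Pvalb (SE 0.24). It was smaller for Slc26a4 (1.29), Calb1 (1.10), Slc12a3 (1.06) and Umod (0.84, limma adjusted p = 0.0236). Slc12a1 (0.52, limma adjusted p = 0.0967), Aqp2 (0.27, adjusted p = 0.387) and Aqp3 were not called. As a share of the 1-to-8-week log2 change, 97.5% was reached by 4 weeks for Egf, 95.3% for Guca2b, 87.8% for Umod and 76.6% for Aqp2. The Umod difference lost its call without replicate 3 of 4 weeks (0.71, limma adjusted p = 0.0695) and without replicate 5 of 4 weeks (0.77, adjusted p = 0.067), and with the actin covariate (0.73, adjusted p = 0.15). Slc12a1 was called without replicate 5 of 8 weeks (0.61, limma adjusted p = 0.0299). For no gene did the 4-to-8-week interval exclude 0; the widest was that of Guca2b.

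**Figure D3:**
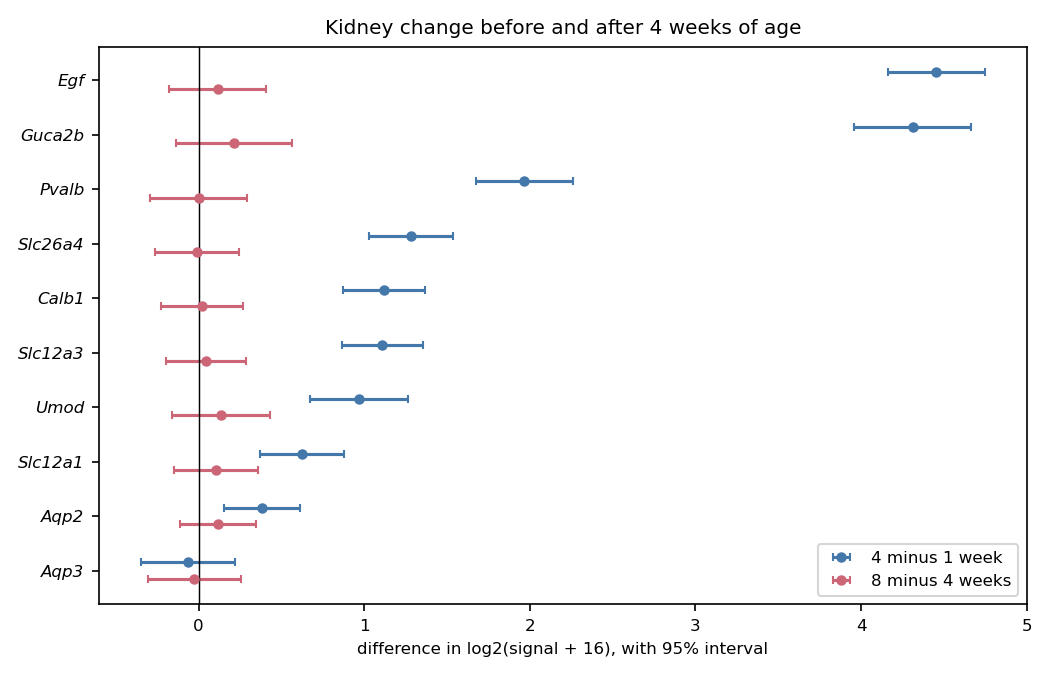
Change of each gene in kidney from 1 to 4 weeks (blue) and from 4 to 8 weeks (red), as the difference in log2(signal + 16) with its 95% interval from limma. Every red interval spans 0, whereas the blue intervals of 9 genes lie to the right of 0.

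Within an age the genes varied unequally between arrays. The coefficient of variation over 5 kidney arrays ran from 4.4% (Slc12a3 at 8 weeks) to 23.1% (Guca2b at 8 weeks). Replicate 3 of 4 weeks was the highest of its age for 7 of the 10 genes, and it had the lowest median signal of the kidney arrays, 133. Replicate 5 of 8 weeks was the highest for 6 genes (Egf, Umod, Slc12a1, Calb1, Pvalb and Guca2b) and had the lowest median of its age, 163. Replicate 1 of 1 week, with a median of 142 and the highest liver sum, was the highest for 5. Without replicate 3 of 4 weeks and replicate 5 of 8 weeks, the calls were 9 of 10 at 8 weeks and 9 at 4 weeks. Without replicates 1 and 5 of 1 week, the arrays with the highest signals of the liver gene Alb (11531 and 2921, against 451 to 886 on the others), they were 9 and 9. Both of these alternatives were chosen after seeing the data.

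Kidney profiles were compared over the 15 arrays by the root mean square difference of centred log2 values, a description with no test, over arrays that share their scaling. Egf and Guca2b were each other's nearest gene among all genes tested, at 0.19, and Egf was next to Dnase1 (0.21), a secreted nuclease, and Guca2b to Aass (0.24), a lysine breakdown enzyme. Umod was nearest to Miox (0.076), an inositol oxygenase of the proximal tubule, and to Park7 (0.10). Slc12a1 was nearest to Hspd1 and Sypl, and Slc12a3 to Retreg1 and Slc47a1, the latter a drug and toxin exporter of the proximal tubule. Calb1 was nearest to Srr and Apoo, Pvalb to Ephx2 and Slc17a3, and Slc26a4 to Ankrd13c and Crebl2. Aqp2 was nearest to Fuca1 and Rnf130, and Aqp3 to Ltbr and Polr2m. Except for Egf and Guca2b, no gene of the set was among the 2 nearest of another.

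Lung and heart served as reference organs. The 10 genes were chosen as kidney genes, so higher kidney signals were largely fixed by that choice. The counts that follow are a description and no test of it. For Umod, Slc12a1, Slc12a3, Calb1 and Guca2b, only kidney groups had a mean of at least 117.9. Against lung, 9, 10 and 9 of the 10 genes were higher in kidney at 1, 4 and 8 weeks, where 24.2%, 27.8% and 29% of the 14974 genes tested over all organs were. Against heart, all 10 were higher at 1 and at 4 weeks, where 29.4% and 30.8% of genes were. Pvalb was the exception in lung, with differences of 0.73 at 1 week (limma adjusted p = 0.159) and 0.70 at 8 weeks (adjusted p = 0.124). Guca2b also stood close to the reference organs at 1 week, with 0.96 against lung (limma adjusted p = 0.0337) and 0.97 against heart (adjusted p = 0.0299). The call against lung was lost without replicate 1, 3 or 4 of kidney at 1 week or replicate 1, 3 or 5 of lung at 1 week (limma adjusted p = 0.0513 to 0.0981). The call against heart was lost without kidney replicate 3 or heart replicate 1 or 4 of 1 week (adjusted p = 0.0614, 0.0652 and 0.2). Pvalb against heart at 1 week (1.12, limma adjusted p = 0.0272) lost its call without kidney replicate 3 or heart replicate 1 or 3 of 1 week (adjusted p = 0.062, 0.0833 and 0.0536). With all 40 arrays as labelled, 9 of 10 were called against lung and 9 against heart at 1 week. Under quantile normalization 8 of 10 were called against heart at 1 week, without Pvalb (0.98, limma adjusted p = 0.0504) and Guca2b (0.83, adjusted p = 0.0523). With an offset of 64 Pvalb was not called against heart (adjusted p = 0.0507), and with an offset of 1 Guca2b was not called against lung at 1 week (adjusted p = 0.0586). By 4 weeks Guca2b stood 4.79 above lung and 5.35 above heart.

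The reference organs held low signals of most of the genes. Slc12a1 read 68.2 to 134 in lung and 45.4 to 121 in heart, Slc12a3 17 to 72.1 and 17.7 to 92.2, and Calb1 36.1 to 98.2 and 11.2 to 134. Aqp2 read 67.8 to 266 in lung and 103 to 254 in heart, and Aqp3 75 to 346 and 17.3 to 65.9. Slc26a4 read 131 to 320.3 in lung and 18.9 to 209.6 in heart, and Guca2b 45.5 to 149 and 11.5 to 175. The files hold no detection calls, so signals near or below 117.9 are not called present or absent.

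**Figure D4:**
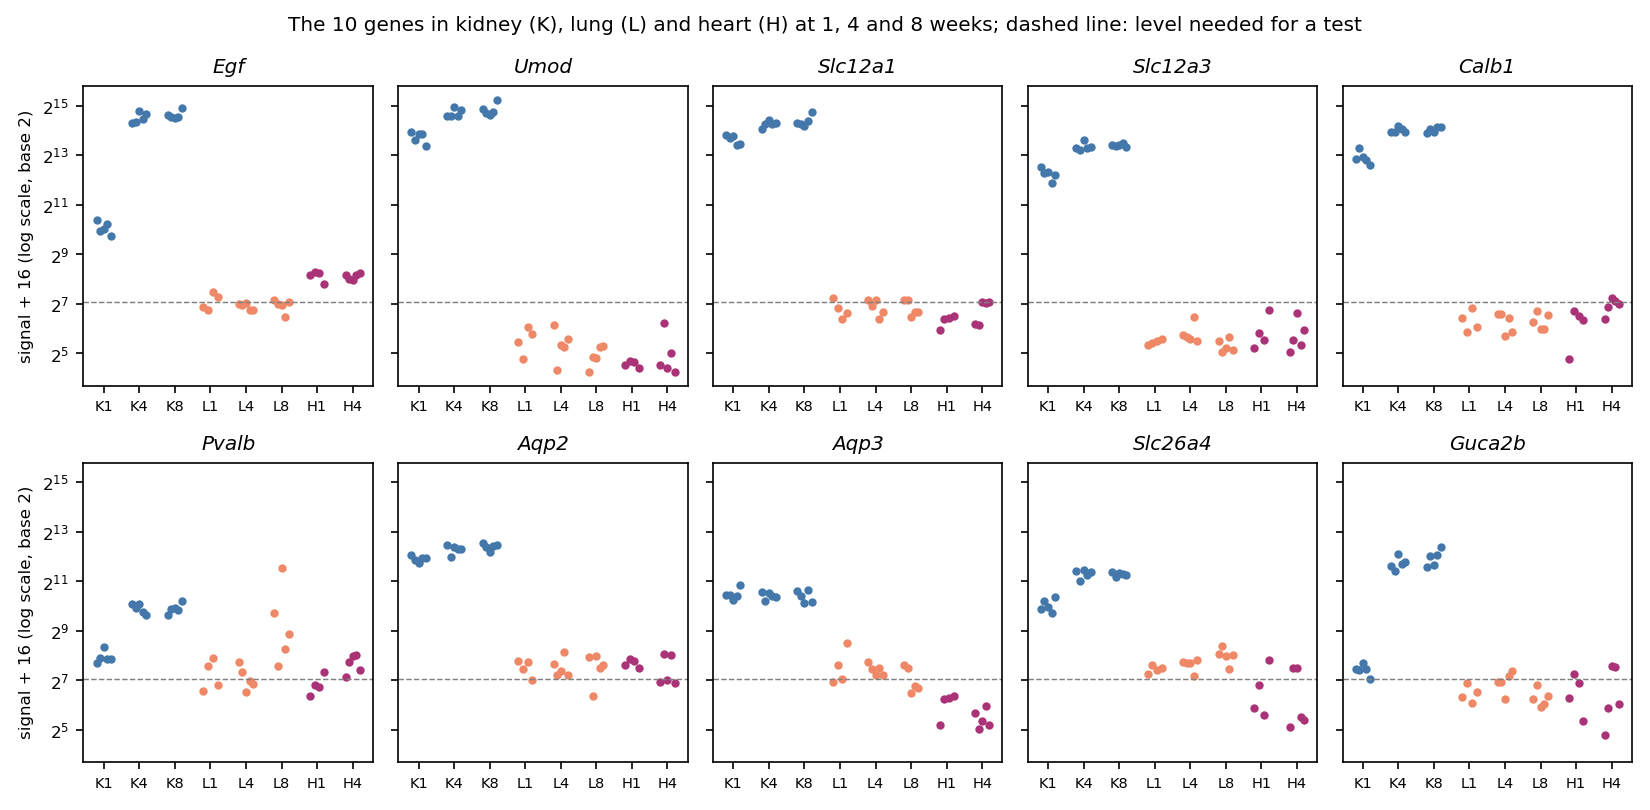
Signal + 16 on a base-2 log scale for each gene in kidney (K), lung (L) and heart (H) at 1, 4 and 8 weeks, with points for single arrays and a dashed line at the level needed for a test. Pvalb and Guca2b are the genes whose kidney arrays overlap with those of lung or heart.

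The kidney change was then set against the change in the other organs, as an interaction in the fit of 38 arrays. From 1 to 8 weeks it exceeded the lung change for 5 of the 10 genes, against 11.8% of all genes. The excess was 4.73 for Egf (SE 0.21), 4.71 for Guca2b (SE 0.52), 1.73 for Umod (SE 0.42), 1.31 for Slc12a3 (SE 0.33) and 1.14 for Calb1 (SE 0.36). For Umod, Slc12a3 and Guca2b the excess includes lung changes of -0.62, -0.15 and -0.18. These lung changes were not called and lay among signals under 117.9. The Calb1 call was lost without lung replicate 3 of 1 week (0.96, limma adjusted p = 0.0511), with an offset of 1 (1.13, adjusted p = 0.0818) and under quantile normalization (0.80, adjusted p = 0.0636). Slc12a1 (0.67, limma adjusted p = 0.0636) was called without lung replicate 3 of 1 week or lung replicate 1 or 2 of 8 weeks (adjusted p = 0.0351, 0.0412 and 0.0418). From 1 to 4 weeks the kidney change exceeded the heart change for 4 genes, against 10.2% of all genes, namely Egf (4.46), Guca2b (4.39), Slc26a4 (1.61) and Slc12a3 (1.23). The Slc26a4 excess includes a heart change of -0.33 that was not called (limma adjusted p = 0.56). The Slc26a4 call was lost without heart replicate 4 of 1 week (1.18, limma adjusted p = 0.0754). Umod was called there without heart replicate 2 of 4 weeks (1.00, adjusted p = 0.0396). With all 40 arrays as labelled, the counts were 6 against lung and 4 against heart. These interactions use the same kidney arrays as the comparisons within kidney and are no separate evidence of the kidney change.

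Within lung, Pvalb was the gene called between 1 and 8 weeks (1.99, SE 0.43, limma adjusted p = 0.000382), with 15.5% of all genes called higher. Its lung signals at 8 weeks were 829.8, 174, 2985, 297 and 456, and replicate 3 stood far above the rest. The summed signals of the 7 skeletal muscle genes on these arrays were 12729, 808.1, 40921, 2377 and 4101, which rank the 5 arrays in the same order as Pvalb. At 1 week the lung Pvalb signals were 78.1, 173, 222 and 97.7 on replicates 1, 2, 3 and 5, with muscle sums of 663, 683, 9973 and 7015. The order did not extend across ages, since replicates 3 and 5 of 1 week had larger muscle sums than replicates 4 and 5 of 8 weeks and lower Pvalb. The 7 genes were also bright in heart, with sums of 34155 to 44645.5 at 4 weeks, so the sums do not separate skeletal from heart muscle. The part of muscle tissue in the lung difference was not tested. Without lung replicate 3 of 8 weeks, Pvalb was higher in kidney than in lung at 8 weeks (1.29, limma adjusted p = 0.00035). Without replicate 1 of 1 week Aqp3 was also called lower in lung at 8 weeks (-0.71, limma adjusted p = 0.0451), and without replicate 2 Umod was (-0.86, adjusted p = 0.0405).

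**Figure D5:**
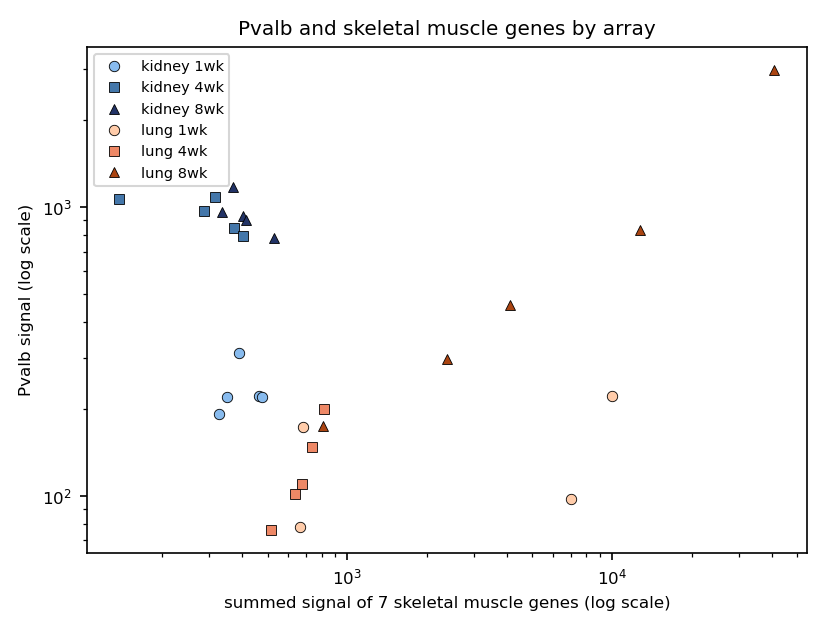
Pvalb signal against the summed signal of 7 skeletal muscle genes (Acta1, Ckm, Myh4, Mylpf, Tnnc2, Tnnt3 and Myh1), both on log scales, for each kidney and lung array used. The kidney arrays of 4 and 8 weeks have high Pvalb with muscle sums of at most 529, while the 8-week lung arrays climb along both axes up to 2985. Heart arrays, where the muscle genes are also bright, are not shown.

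Within heart, Calb1 was the gene called between 1 and 4 weeks (0.83, SE 0.26, limma adjusted p = 0.0149), with 13% of all genes called higher. Its heart signals were 11.2, 90.1, 76.2 and 65 at 1 week, on replicates 1 to 4, and 68, 100.1, 134, 122 and 111 at 4 weeks. All but 2 lay under 117.9, and the call was lost without replicate 1 of 1 week (0.38, limma adjusted p = 0.182) and with the next Calb1 probe set (0.38, adjusted p = 0.303). Aqp3 was called lower in heart without replicate 1 of 1 week (-0.85, limma adjusted p = 0.0108) or replicate 4 of 4 weeks (-0.71, adjusted p = 0.0422), and Slc12a1 higher without replicate 1 or 2 of 4 weeks (0.53 each, adjusted p = 0.0443 and 0.0427).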

How the data were processed

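Trizol-extracted total RNA was labelled as biotinylated cRNA for Affymetrix mouse arrays, per the labels' protocols. What the authors deposited is an intensity per probe set, a linear signal between 0 and 69706.7 whose mean per array, after trimming 2% at each end, is 500. RMA and Partek 6.6 are named without a role, per the submitters' processing notes. The values are not RMA's log2 values, and the summary method is not given in the sources used here. Probe sets were named from the platform annotation (34958 of 45101 with 1 symbol) and genes placed through RefSeq's GRCm38.p6 table, whose build the arrays need not share. Array number, not read depth, limits precision.

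Signals were taken as log2(signal + 16). A gene was tested if a group of the fit had a mean signal of at least 117.9, the level below which 40% of all values lie. Limma 3.58.1 (lmFit, eBayes, R 4.3.3) was fitted to the 15 kidney arrays, and to 38 arrays for comparisons with other organs, with Benjamini-Hochberg adjustment over all genes tested (threshold 0.05), after the scripts were tested on simulated data. Calls compare 5 animals per age, or 4 where an array was left out. The 10 genes, the gene lists and the tests were chosen with earlier results of these data known. The skeletal muscle list was added after the signals were seen. The text names all 10 genes. From each of the 8 lists it names up to 4 genes with the largest called change between 1 and 8 weeks. It also names up to 2 called against their list's majority, and for each of the 10 the 2 nearest profiles. Alternatives were other offsets, no filter, quantile normalization, other probe sets, a replicate block and the actin covariate. Others were a random block for the animal number, all 40 arrays as labelled, and leaving out arrays.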

Additional observations from a re-analysis of the deposited data

Results flagged for a closer look

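Arrays standing apart from the other arrays of their group were found in 9 of 80 groups of the 10 genes, 4 of them in kidney; chance gives such an array in about 1 group in 20. In kidney, Egf on replicate 5 of 8 weeks was 31173 against 23361 to 25268 on the others. Slc12a3 on replicate 3 of 4 weeks was 12674 against 9616 to 10224. Pvalb on replicate 3 of 1 week was 311 against 192 to 221, and Aqp3 on replicate 5 of 1 week was 1845 against 1212 to 1375. In lung, Pvalb on replicate 3 of 8 weeks was 2985 against 174 to 829.8, the lung array with the highest skeletal muscle sum. Replicate 4 of lung at 4 weeks stood apart for a pair of genes, with Slc12a3 at 72.1 against 29.9 to 37.8 and Slc26a4 at 131 against 193 to 212. In heart, Umod on replicate 2 of 4 weeks was 59.5 against 2.9 to 16.5, and Aqp3 on replicate 1 of 1 week was 21 against 60.2 to 65.9, all dim signals.

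The change differed between organs, by the interaction in limma, for 5 genes against lung and 4 against heart. From 1 to 8 weeks the kidney change minus the lung change was 4.73 for Egf, 4.71 for Guca2b, 1.73 for Umod, 1.31 for Slc12a3 and 1.14 for Calb1. From 1 to 4 weeks the kidney change minus the heart change was 4.46 for Egf, 4.39 for Guca2b, 1.61 for Slc26a4 and 1.23 for Slc12a3. The Umod value includes a lung change of -0.62, among signals under 117.9, and the Slc26a4 value a heart change of -0.33. Neither of these changes was called.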

How the results depend on the processing

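Of 2624 values of the 10 genes under the alternatives tried, 2570 kept their side of the threshold, 36 lost a call and 18 gained one. A change of direction was counted as a reversal only where either value was called, and there were 0. Uncalled values that changed sign are among the 2570. The Aqp3 difference between 1 and 4 weeks, for example, was -0.064 and reached 0.046 under an alternative. The counts of 9 genes at 4 weeks and 9 at 8 weeks ran from 7 to 9. The 7 came with the other probe sets, where those of Slc12a1 and Slc12a3 were too dim to test. Sizes depended on the scaling for bright genes. Under quantile normalization the 8-minus-1-week change was 0.76 for Umod, 0.87 for Slc12a3 and 0.83 for Calb1, against 1.11, 1.16 and 1.14. It was 4.52 for Egf and for Guca2b, 2.07 for Pvalb and 1.31 for Slc26a4. Fitting all 38 arrays together left 3 of the 7 genes with a larger first than second step and raised the calls among all genes between 4 and 8 weeks from 87 to 145. Those calls were 49 without kidney replicate 3 of 4 weeks and replicate 5 of 8 weeks, an alternative chosen after seeing the data, and 57 to 85 with 1 array left out in turn (57 without replicate 4 of 4 weeks). The actin covariate lowered the calls among all genes to 3678 between 1 and 4 weeks and to 1594 for the difference between the steps. The actin gap is confounded with age, so effects of age and of the gap cannot be told apart. The cause of the lower counts was not tested. In heart the count of 1 gene was 0 with the next probe set, 2 with all arrays as labelled and 1 to 2 with 1 array left out; in lung it was 1 to 2.

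Replicate numbers did not pair the kidney arrays, since same-numbered arrays correlated at -0.27 to 0.30 after removing age means and 4 of 15 correlated best with their own number. Kidney arrays of different ages come from different animals, so this check could not show a pairing by animal. Organs of an age share animals, and the main comparisons between organs treated their arrays as separate. In the fit of 38 arrays with the animal number as a random block, the correlation within animal was 0.0141. With the replicate block, 9, 9, 0 and 6 of the 10 genes were called at 4 against 1, 8 against 1 and 8 against 4 weeks and for the difference between the steps. For the steps the Umod call was lost (limma adjusted p = 0.0566). The block also ended the 8-week calls of Atp6v1b1 (limma adjusted p = 0.0574), Npr1 (0.0616) and Slc6a12 (0.0635), which fell. Among rises it ended those of Slc4a1 (0.0568) and Atp6v0a4 (0.054), named after their values were seen. Of 13 other intercalated cell genes 3 were then called higher and 3 lower, against 2515 and 3686 of all 13756 genes. The number of arrays limits precision, and signals near the level needed for a test limit Guca2b at 1 week and the genes in lung and heart.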

Other observations

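Of 8 genes of the inner medulla, of thin limbs and of osmolyte handling tested, 3 were called higher and 2 lower in kidney at 8 weeks than at 1 week (limma), against 19.3% higher and 28% lower over all genes, with a median of 0.061. The inositol transporter gene Slc5a3 rose by 1.56 (SE 0.10, from 3487 ± 364 to 10312 ± 778) and the taurine transporter gene Slc6a6 by 1.36 (SE 0.32, from 2102 ± 1057 to 4918 ± 809). Nfat5, the transcription factor that responds to tonicity, fell by 1.44, from 2958 ± 1060.1 to 1028 ± 148. The betaine transporter gene Slc6a12 fell by 1.09, from 123 ± 52.2 to 51.1 ± 33.8, near the level needed for a test, and its call was lost with the 3′ to 5′ actin gap as a covariate (-0.51, limma adjusted p = 0.463).

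Of 13 transcription factor genes of the distal nephron tested, 2 were called higher and 4 lower, against the same 19.3% and 28% over all genes, with a median of -0.12. Lhx1 rose by 0.93 (SE 0.14, from 301 ± 59.8 to 578 ± 55.2) and Pou3f3, a factor of the loop of Henle, by 0.39. Grhl2, a factor of duct epithelium, fell by 0.58, and Gata3 and Elf5 fell with it. Gata3 went from 428 ± 135 to 194 ± 93, and its call was lost with the actin covariate (limma adjusted p = 0.0681).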
